A study of Homo sapiens with 6 samples.

Results

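CIRBP and RBM3 were taken from the gene table by symbol; each symbol matched 1 row, so these are 2 of the 58735 genes measured. They encode small RNA-binding proteins, each made of an RNA recognition motif followed by a glycine-rich tail. They were read in 6 RNA-seq libraries, 3 a group, from the established human malignant melanoma cell line A375. In the PAL group the cells met Ringer's lactate solution that had been activated with a low-temperature plasma, and in the control group they did not. The labels name no dose, exposure time or culture temperature, and do not explain the 64 that follows PAL in the column names. They also do not say whether replicates came from separate cultures, so p-values reflect only library-to-library spread, possibly technical.

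Both genes are textbook cold-inducible transcripts. In mammalian cells their messages rise when the temperature drops a few degrees below that of the body and fall when it goes above it, the opposite of the chaperone genes driven by HSF1, the main heat shock transcription factor. The proteins bind other messages, affect their stability and translation, and can move into stress granules; the messages themselves are also regulated by splicing, with a poison exon in RBM3 and intron removal in CIRBP. The question here was how the pair stood in PAL and control libraries whose heat shock transcripts differ widely.

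To show what lies in front of each gene, the sequence just before the main transcript is printed first, since heat shock factors act through paired GAA units in promoters. The sequences are from RefSeq (GRCh38.p14), plus strand, and each stops before the first base of its window that GENCODE 29 annotates as exon of the gene. For RBM3 that is the start of the annotated gene. For CIRBP the stretch lies inside the annotated gene, in an intron of transcripts that start upstream, because GENCODE 29 places its first exon at 1259384 and the RefSeq start used here is 1269332. They cover chr19:1269082-1269265 for CIRBP and chrX:48574234-48574448 for RBM3. Capitals mark GC boxes (GGGCGG, the core bound by SP1) in CIRBP and paired heat shock units (TTCNNGAA) in RBM3.

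CIRBP: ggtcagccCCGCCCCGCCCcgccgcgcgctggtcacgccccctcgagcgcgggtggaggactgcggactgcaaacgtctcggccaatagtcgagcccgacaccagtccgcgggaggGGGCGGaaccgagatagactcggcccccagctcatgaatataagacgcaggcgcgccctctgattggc

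RBM3: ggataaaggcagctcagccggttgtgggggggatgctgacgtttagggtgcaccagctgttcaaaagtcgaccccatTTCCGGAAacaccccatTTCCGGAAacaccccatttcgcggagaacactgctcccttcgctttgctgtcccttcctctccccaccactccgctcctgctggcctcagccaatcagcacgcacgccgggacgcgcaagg

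Motifs were searched on both strands in windows of 300 bases, 250 before and 50 after each RefSeq start. The RBM3 window held 3 heat shock pairs: TTCNNGAA began 173 and 156 bases before the start, and GAANNTTC began 34 bases before it. Each TTCNNGAA match here also holds CCGGAA, the core bound by ETS factors, on both strands. The CIRBP window held 0 heat shock pairs and 4 GC boxes, of which the 2 farthest from the start overlap by 1 base. Of 35116 windows in the table, 13.5% held a heat shock pair of either form, 0.194% held at least 3, and 45.0% held a GC box. TCCCCGCC, an element described for cold induction of CIRBP, matched 8.52% of windows and neither of these. Among 20 heat-inducible chaperone genes, 13 of the 18 with a window held a pair, 6 of them with at least 3. These are counts of genes, each by its window with the most pairs, whereas the shares above are of windows. The letters describe these windows only.

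Library depth and the cell line bear on every value that follows. Reads assigned to genes ranged from 15064971 to 17711389 per library. Of 10 melanoma markers 5 were tested, 1 was higher in PAL and 2 lower, a called share of 60% beside 25.9% over all genes. Their median difference was -0.06, while MLANA, TYR and DCT were at or near 0 in both groups. SOX10, a lineage factor, had a mean of 88.1 ± 1.68 FPKM in control libraries and 108 ± 0.944 in PAL libraries. By contrast, S100B (difference -0.29, adjusted p = 0.0300 in limma) and ERBB3 (-0.16, adjusted p = 0.0295) were lower. Under alternative processing, including left-out libraries, the S100B call was lost in 10 of 17 settings and the ERBB3 call in 12 of 18. SOX10 kept its call in all 18. The list summed to 118.8 to 120.9 FPKM in control and 134.3 to 136.1 in PAL, a sum of which SOX10 made up most. Of 10 keratinocyte, immune and endothelial markers, only KRT10, LYZ and KRT14 reached the test, and CD3E was at 0. KRT14 was lower in PAL (difference -0.31, adjusted p = 0.0422 in limma), a call lost in 8 of 17 such settings. The other 2 were not called, which made a called share of 33.3% beside 25.9% over all genes. This second list summed to 36.5 to 41.4 FPKM in control and 34.2 to 36.8 in PAL. These shifts in marker sums run beside the results below, and their part in them was not tested.

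CIRBP, the cold-inducible RNA-binding protein (chromosome 19, 1259384 to 1274880, plus strand, hg38), was higher in PAL, and RBM3, RNA-binding motif protein 3 (chromosome X, 48574449 to 48579066, plus strand), was lower. The pair therefore moved apart, each by a small amount: 15.8% up for CIRBP and 10.8% down for RBM3 in mean FPKM. Heat-inducible chaperones, against which both genes are known to move, were lower in PAL in the same libraries. The difference of CIRBP thus had the opposite sign to that of the chaperones and the difference of RBM3 the same sign.

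CIRBP stood at 11.2, 10.7 and 10.3 FPKM in control replicates 1, 2 and 3, a mean of 10.8 ± 0.430 (SD, n = 3). In PAL replicates 1, 2 and 3 it stood at 13.0, 12.9 and 11.5 FPKM, a mean of 12.4 ± 0.858. The groups did not overlap, but PAL replicate 3 lay only just above control replicate 1. Behind these values were 1014 to 1127 reads per control library and 1344 to 1519 per PAL library. The exact 95% Poisson interval of PAL replicate 3, 10.9 to 12.1 FPKM, overlapped those of all 3 control libraries, which together ran from 9.70 to 11.9. Such intervals cover counting error only.

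On the log2(FPKM + 1) scale CIRBP was higher in PAL by 0.19 ± 0.06 (SE; 95% interval 0.06 to 0.33), with an adjusted p of 0.0431 in limma, just under the threshold of 0.05. The call rested on most libraries being present. Leaving out control replicate 1 (difference 0.22, adjusted p = 0.0593), control replicate 2 (0.19 and 0.102) or control replicate 3 (0.17 and 0.104) ended it. So did leaving out PAL replicate 1 (0.16, adjusted p = 0.130) and PAL replicate 2 (0.17 and 0.133). It was kept without PAL replicate 3 (0.25, adjusted p = 0.0183). That library was also the PAL library with the highest HSPA1A, at 95.4 FPKM against 48.8 and 51.7 in PAL replicates 1 and 2. Other chaperones varied in this. DNAJB1 stood at 124 FPKM there against 70.9 and 74.0, but ZFAND2A at 10.9 against 10.7 and 10.6. The same library had the lowest RBM3 of all libraries, at 78.9 FPKM. How far these observations belong together was not tested.

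RBM3 was the more abundant of the pair. Its control values, in replicate order, were 91.5, 94.0 and 90.0 FPKM (mean 91.8 ± 2.04 SD, n = 3). Its PAL values were 82.7, 84.1 and 78.9 FPKM (mean 81.9 ± 2.72). All PAL libraries lay below all control libraries. Reads numbered 5197 to 5402 in control and 5240 to 5673 in PAL, and the counting interval of the highest PAL library, 81.9 to 86.4 FPKM, lay below that of the lowest control library, 87.6 to 92.5.

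RBM3 was lower in PAL by 0.16 on the log2(FPKM + 1) scale, a difference of -0.16 ± 0.03 (SE; 95% interval -0.24 to -0.09) with an adjusted p of 0.0119 in limma. Unlike the CIRBP call, it held when any single library was left out. It depended instead on how libraries were scaled. The library sizes behind the deposited FPKM were 0.980 to 0.984 of the read total in control and 1.04 to 1.05 of it in PAL. The difference of RBM3 was -0.08 with plain read totals (adjusted p = 0.105), -0.09 as TPM (adjusted p = 0.0552) and -0.08 after quantile normalization (adjusted p = 0.130). Taken relative to the median of all genes tested, it was -0.17 as deposited and -0.15, -0.16 and -0.11 under those 3 scalings.

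**Figure D1:**
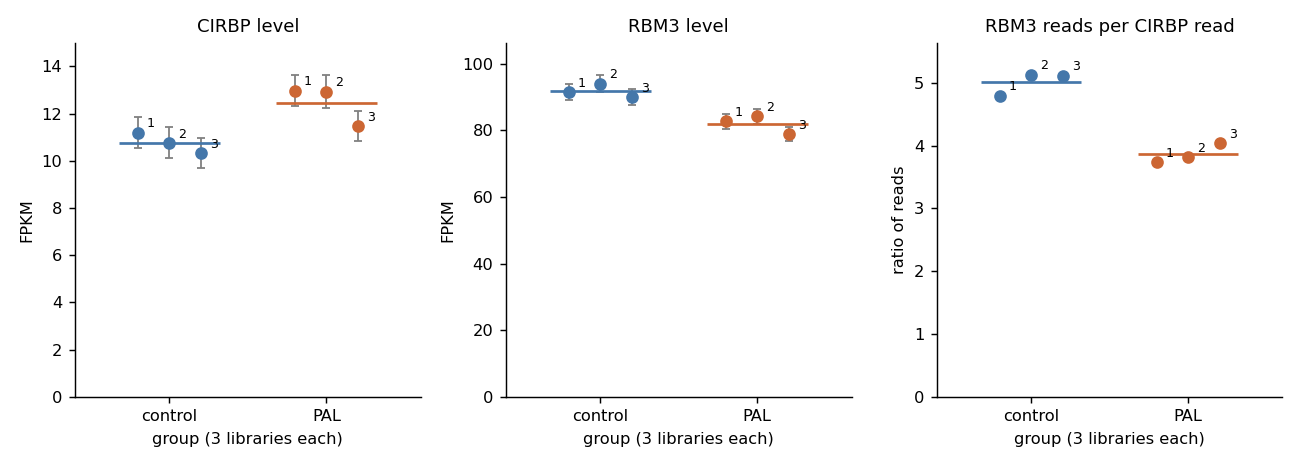
Level of CIRBP and RBM3 in FPKM, and RBM3 reads per CIRBP read, in the 3 control and 3 PAL libraries (numbers: replicate; line: group mean; grey bar: 95% Poisson interval of counting error). CIRBP lay at 10.3 to 11.2 FPKM in control and 11.5 to 13.0 in PAL, RBM3 at 90.0 to 94.0 and 78.9 to 84.1, and the ratio at 4.79 to 5.13 and 3.73 to 4.03.

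These calls have to be read against a table in which many genes differed. Of 12258 genes tested, 11.4% were higher in PAL and 14.5% lower, and the groups did not overlap for 44.9%. Of all calls, 44.0% were higher in PAL on the deposited scale. The share was 73.3% with plain read totals, 69.9% on the TPM scale and 59.2% when quantile normalized. The number of calls, 3179, was 2051 without control replicate 2, 1972 without PAL replicate 1 and 1855 without PAL replicate 2. A larger difference in either direction than that of CIRBP was seen in 3315 of the genes tested, and 4139 exceeded RBM3. An exact two-sided permutation test of 3 against 3 libraries gave p = 0.10 for each gene, the smallest value this design allows.

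The ratio of the pair within a library does not depend on any scaling between libraries. Control replicates 1, 2 and 3 held 4.79, 5.13 and 5.11 RBM3 reads per CIRBP read (mean 5.01 ± 0.187), and PAL replicates 1, 2 and 3 held 3.73, 3.82 and 4.03 (mean 3.86 ± 0.154). The ratio was 22.9% lower in PAL by the group means, with no overlap; the difference was not tested. Ranks by FPKM among the genes tested are likewise free of scaling. CIRBP ranked between 4071 and 4364 in control and between 3524 and 3932 in PAL. RBM3 ranked between 449 and 480 in control and between 481 and 509 in PAL, so its groups met at neighbouring ranks.

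Levels of the 2 genes per length need care, because FPKM here divides by the union of all exon bases of a gene. That length is 6368 bases for CIRBP, whose 14 coding transcripts in the basic GENCODE 29 set run from 746 to 1835 bases, and 3731 bases for RBM3, whose 3 such transcripts run from 1130 to 2162. CIRBP has 46 annotated transcripts and RBM3 has 11. The table holds 1 value per gene, so isoforms, the poison exons of RBM3 and retained introns of CIRBP were not analysed here.

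Overlapping and neighbouring genes were looked at because nothing states whether the counting used strand. CIRBP-AS1, an antisense RNA within CIRBP, shares 4 exonic bases with it and stood at 0.260 to 0.475 FPKM in control and 0.382 to 1.15 in PAL. AC115618.1, antisense to the start of RBM3, shares 95 exonic bases and was not called (1.83 ± 0.876 and 1.54 ± 0.187 FPKM, adjusted p = 0.700 in limma). Both stood far below the member they overlap. The nearest protein-coding gene before CIRBP is MIDN, on the same strand with its end 244 bases from the first annotated base of CIRBP, which encodes midnolin, a protein that carries nuclear proteins to the proteasome. MIDN fell from 15.1 ± 1.56 to 8.88 ± 0.721 FPKM (adjusted p = 0.00173 in limma), opposite in sign to CIRBP. C19orf24, 558 bases after CIRBP, stood at 15.4 ± 1.58 and 15.9 ± 1.26 FPKM (adjusted p = 0.739). Around RBM3, TBC1D25 was not called, and WDR13 was higher in PAL (7.82 ± 0.415 to 9.16 ± 0.470 FPKM, adjusted p = 0.0309), a call lost without control replicate 1, control replicate 2, PAL replicate 2 or PAL replicate 3 (adjusted p of 0.0639 to 0.101).

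The heat-inducible chaperones were the comparator for the pair. Their list had a median difference of -1.12 beside 0.00430 over all genes. Of its 20 genes, all tested, 19 were lower in PAL and 0 higher, a called share of 95% beside 25.9% over all genes. The exception, HSPA4, named after its values were seen, stood at 88.7 ± 1.98 and 82.0 ± 3.16 FPKM (adjusted p = 0.0516 in limma). HSPA1A, an inducible HSP70, differed by -4.45 on the log2 scale, DNAJB1, its HSP40 partner, by -3.93 and ZFAND2A, an arsenite- and heat-inducible zinc finger protein, by -3.31. The 3 genes of the list with the lowest adjusted p were ZFAND2A, HSPB1 (difference -1.81) and HSP90AA1 (-0.86). HSPH1, a set relative, differed by -1.89. HSPA1A and HSPA1B are near-identical, so the split of reads between them is uncertain. The differences of CIRBP and RBM3, 0.19 and -0.16, were smaller in size than that of every called gene in this list, whose called member nearest to 0 was AHSA1 at -0.36 (named after its values were seen). Because the series title names the direction of heat shock proteins, the count for this list is not independent evidence of it.

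**Figure D2:**
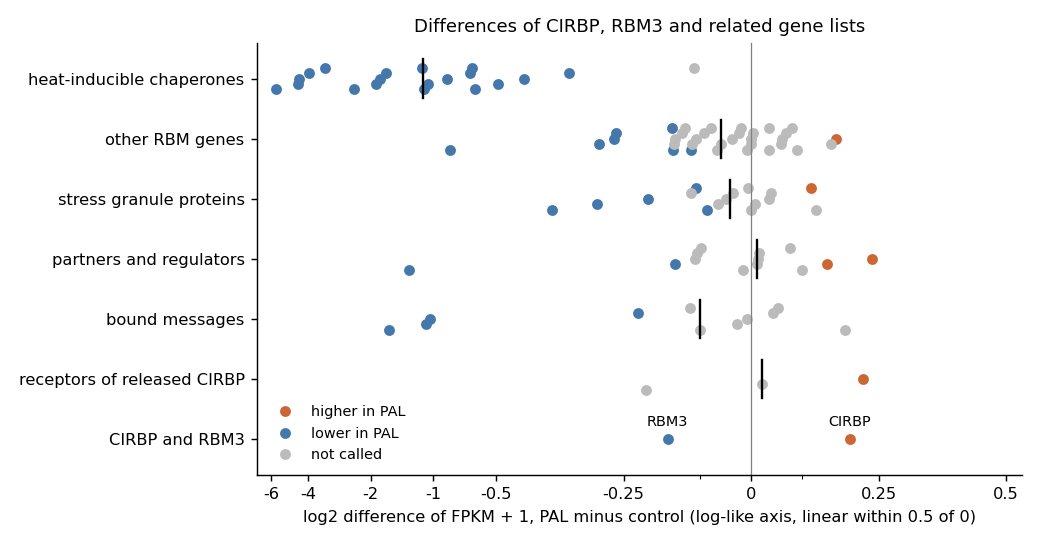
Log2 difference of FPKM + 1, PAL minus control, for each tested gene of the lists and for CIRBP and RBM3 (1 point a gene; orange higher, blue lower, grey not called; black line: list median; the axis is log-like beyond 0.5 and linear within it). The chaperones lie between -5.71 and -0.11, while CIRBP (0.19) and RBM3 (-0.16) lie near 0 on either side.

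RBM3 was next set beside genes that share its family name. RBM genes encode proteins with RNA recognition motifs, many of them splicing regulators. Of 42 other protein-coding RBM genes, 33 were tested, 1 was higher and 7 were lower, a called share of 24.2% beside 25.9% over all genes, with a median difference of -0.06. With plain read totals 3 were higher and 3 lower, so the direction of the family as a whole was not stable to scaling. The 8 calls became 4 without PAL replicate 1, and 5 without control replicate 2, PAL replicate 2 or PAL replicate 3. RBM15, which guides the m6A methylation of RNA, fell from 12.0 ± 0.862 to 6.31 ± 0.439 FPKM (adjusted p = 2.54e-04 in limma). Its relative RBM15B rose from 19.4 ± 0.421 to 21.9 ± 0.333 FPKM (adjusted p = 0.00916). RBM39, a splicing cofactor, fell from 28.4 ± 0.821 to 23.4 ± 0.689 FPKM (adjusted p = 0.00269).

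RBMX and RBMXL1 encode proteins that, like those of the pair, begin with an RNA recognition motif. RBMX had 76.1, 80.4 and 72.5 FPKM in the control libraries. In the PAL libraries it had 77.0, 75.7 and 73.0 FPKM, with overlapping groups (difference -0.02, 95% interval -0.12 to 0.08, adjusted p = 0.762 in limma). RBMXL1, a retrocopy of RBMX whose reads may be split with it, stood at 6.35 ± 0.623 and 6.22 ± 0.573 FPKM (adjusted p = 0.851). Neither showed a difference beyond the spread between libraries. That of RBM3 lay among the lower RBM genes, and CIRBP, which has no RBM name, lay above all of them in the plot of that family.

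**Figure D3:**
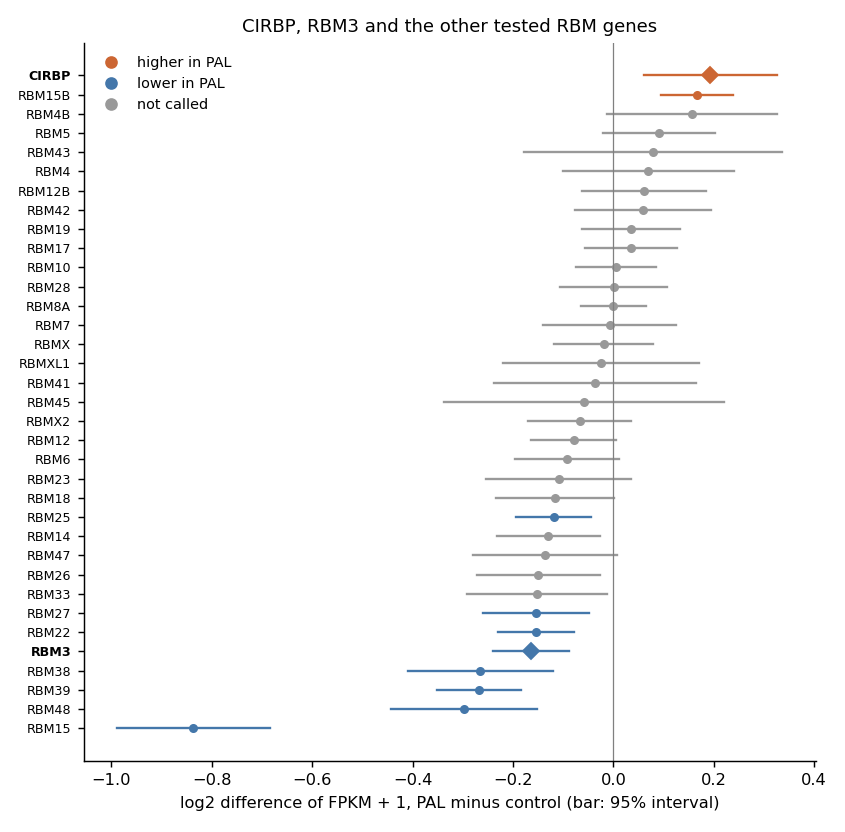
Log2 difference of FPKM + 1, PAL minus control, with its 95% interval for the 33 tested RBM genes (circles) and for CIRBP and RBM3 (diamonds), in order of size (orange higher, blue lower, grey not called). CIRBP is at the top at 0.19, RBM15 at the bottom at -0.84, and RBM3 at -0.16 has 4 RBM genes below it.

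Genes described as acting on CIRBP or RBM3 came next. Of 14 such genes 13 were tested, 2 were higher and 2 lower, with a median difference of 0.01; the called share was 30.8% beside 25.9% over all genes. With plain read totals 4 were higher and 1 lower, and the 4 calls became 1 without PAL replicate 1 and 2 without control replicate 1 or control replicate 2. The called member with the largest difference was CLK1, a temperature-sensitive kinase of splicing factors, with 12.1, 11.8 and 9.93 FPKM in the control libraries. Its PAL libraries had 3.67, 3.63 and 4.61 FPKM, far below them. It fell by 1.31 on the log2 scale (adjusted p = 2.26e-04 in limma). CLK4, a related kinase, was near 1 FPKM in all libraries (adjusted p = 0.910).

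HNRNPH1, a splicing factor that represses the poison exon of RBM3, was at 64.9 ± 2.12 FPKM in control and 58.4 ± 0.574 in PAL (difference -0.15, adjusted p = 0.0132 in limma). That call was lost without PAL replicate 1 (-0.14, adjusted p = 0.0507) and under the 3 other scalings (adjusted p of 0.102 to 0.143). SP1, the factor that binds GC boxes, was at 12.9 ± 0.232 and 14.4 ± 0.560 FPKM (0.15, adjusted p = 0.0290). It lost its call without any single library except PAL replicate 2, with adjusted p values of 0.0554 to 0.0886. CSNK2B, the regulatory subunit of casein kinase 2, which phosphorylates CIRBP, was at 4.25 ± 0.346 and 5.19 ± 0.384 FPKM (0.24, adjusted p = 0.0468), a call lost without any single library except PAL replicate 3, at 0.0683 to 0.142.

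The other regulators did not pass the test. PRMT1, the methyltransferase that acts on the glycine-rich tail of CIRBP, stood at 75.8 ± 2.05 and 76.4 ± 2.95 FPKM (adjusted p = 0.843 in limma). TNPO1, the importin that carries CIRBP into the nucleus, stood at 33.3 ± 0.222 and 30.9 ± 1.31 (adjusted p = 0.0659), and SRPK1, a kinase of serine- and arginine-rich proteins, at 17.5 ± 0.0873 and 16.2 ± 0.326 (adjusted p = 0.0501). HSF1 stood at 20.1 ± 1.28 and 21.6 ± 0.237 FPKM with overlapping groups (adjusted p = 0.153). GSK3B, CSNK2A1, DYRK1B and TRPV4 had adjusted p values of 0.177 to 0.865, and NTRK2, an upstream receptor in neurons, was below the filter.

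Messages described as bound or stabilised by the pair were mostly not called. Of 11 tested, 4 were lower and 0 higher, with a median difference of -0.10. The called share was 36.4% beside 25.9% over all genes, and with plain read totals 4 were lower and 1 higher. CXCL8, a chemokine, fell from 32.5 ± 0.661 to 9.76 ± 1.02 FPKM (adjusted p = 1.69e-05 in limma). VEGFA, an angiogenic factor, fell from 9.64 ± 0.404 to 4.04 ± 0.371 (adjusted p = 7.40e-05), and PTGS2, or COX-2, from 1.90 ± 0.222 to 0.408 ± 0.0976 (adjusted p = 5.40e-04). These 3 are among the messages described for RBM3, and each is also a known target of stress and inflammatory signalling. HIF1A, the oxygen-regulated factor, fell from 60.3 ± 2.40 to 51.6 ± 0.531 FPKM (adjusted p = 0.00477).

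The other 7 messages of the list were not called, among them TXN, RPA2, ATR and CLOCK, which are described for CIRBP. TXN, or thioredoxin, stood at 340 ± 6.01 and 352 ± 1.74 FPKM (adjusted p = 0.121 in limma). RPA2, a subunit of the single-strand DNA-binding complex, stood at 45.5 ± 1.99 and 44.7 ± 1.78 (adjusted p = 0.680), ATR, a DNA damage kinase, at 5.16 ± 0.301 and 4.67 ± 0.344 (adjusted p = 0.197), and CLOCK, a circadian factor, at 3.91 ± 0.0873 and 3.58 ± 0.155 (adjusted p = 0.179). RTN3, a reticulon whose translation RBM3 raises in cooled neurons, stood at 25.5 ± 1.20 and 26.3 ± 1.02 FPKM (adjusted p = 0.514). TERT and YAP1 were not called either. RNA levels do not show binding or translation.

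Stress granule proteins, with which both proteins can gather, were read as a list. Of 16 tested, 5 were lower and 1 was higher, with a median difference of -0.04. The called share was 37.5% beside 25.9% over all genes. With plain read totals 3 were lower and 2 higher. DDX3X, an RNA helicase, fell from 55.5 ± 0.913 to 42.1 ± 1.29 FPKM (adjusted p = 2.75e-04 in limma), G3BP2, a nucleator of granules, from 23.8 ± 0.127 to 19.1 ± 0.241 (adjusted p = 5.19e-04) and FXR1 from 14.6 ± 0.495 to 12.6 ± 0.309 (adjusted p = 0.00987). The other main nucleator, G3BP1, stood at 42.6 ± 0.783 and 42.5 ± 0.506 FPKM (adjusted p = 0.905; named after its values were seen). Outside the cell, CIRBP is known as a danger signal. Of its described receptors, TLR4 stood at 6.03 ± 0.633 and 5.09 ± 0.462 FPKM (adjusted p = 0.113) and LY96, the partner of TLR4, was not called. IL6R stood at 2.15 ± 0.143 and 2.67 ± 0.0612 FPKM (adjusted p = 0.0334), and TREM1 was below the filter. The IL6R call was lost without any single library except control replicate 3, with adjusted p values of 0.0784 to 0.0951.

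Last, the genes whose pattern over the 6 libraries was most like each member were ranked among 6414 protein-coding genes with a mean of at least 5 FPKM, by Pearson's r of log2(FPKM + 1). Since the libraries fall into 2 groups, such a ranking favours any gene with a similar group difference, and these r are a description. For CIRBP the closest were ABR (r = 0.995), TBCA, a tubulin folding cofactor (0.994), RPL19, a ribosomal protein (0.990), NUBP1, an iron-sulfur cluster assembly factor (0.987), and RAP1GAP2, which turns off RAP1 (0.986). For RBM3 they were SMARCA4, a chromatin remodelling ATPase (r = 0.994), SERINC1, a membrane protein (0.987), ATP2B1, a calcium pump of the plasma membrane (0.985), SAP18, a corepressor and splicing-linked protein (0.985), and THRAP3, a splicing-associated protein (0.982). Of these 10 genes, 5 passed the test, beside 25.9% of all genes tested. Choosing genes for likeness to 2 called genes itself favours calls, so nothing is read from that count. TBCA and RAP1GAP2 were higher in PAL, and SERINC1, ATP2B1 and SAP18 lower. The TBCA and RAP1GAP2 calls were lost without any single library except PAL replicate 3, with adjusted p values of 0.0592 to 0.122. The SERINC1 call was lost with plain read totals (adjusted p = 0.0638) and without control replicate 1, control replicate 2 or PAL replicate 1 (0.0503 to 0.0551). None of the 10 is in the list of heat-inducible chaperones. For CIRBP the ranking left no room for one, since all 20 chaperones had every PAL library below every control library and CIRBP the reverse. Of the 12258 genes tested, 2890 had the first of these patterns and 2618 the second.

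**Figure D4:**
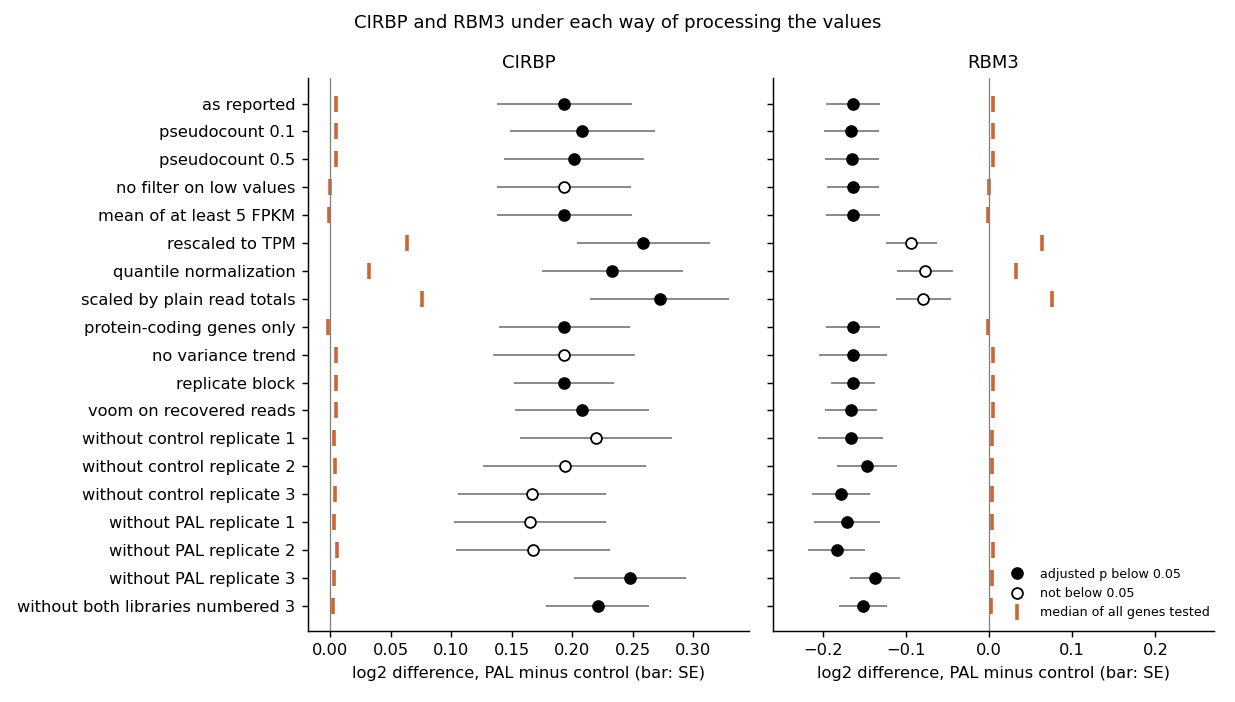
Log2 difference of CIRBP (left) and RBM3 (right), PAL minus control, under the reported fit and 18 alternatives (point: estimate; bar: SE; filled: adjusted p below 0.05; orange tick: median of all genes tested). CIRBP stays between 0.16 and 0.27 and loses its call in 7 alternatives, RBM3 stays between -0.18 and -0.08 and loses its call in 3.

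Under all 18 alternatives CIRBP was above 0 and RBM3 below 0, as the plot of settings shows. The 7 alternatives in which the CIRBP call was lost were 5 that left out a library, the table with no filter and the fit with no variance trend. The 3 in which the RBM3 call was lost were the other scalings. Those same scalings moved CIRBP up, to 0.23 to 0.27, with adjusted p values of 0.0119 to 0.0248 in limma.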

How the data were processed

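Each library has 1 FPKM value per gene in the table the authors deposited, that is, reads divided by the length of the gene and a library size of their choosing, per the file headers and the values. The submitters' processing notes name the build hg38; no aligner, counter or strand setting is given. Poly-A enriched RNA was sequenced, per the labels' protocols. All 58735 genes have the positions of GENCODE 29, and the deposited gene length of the pair equals their union of exons. FPKM times gene length came in whole steps of 1 read (100% of values within 0.01 of a whole number), so reads and depth were recovered. Replicates differed by more than counting noise, at a chi-square of 1.92 to 3.71 per degree of freedom.

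Genes with at least 1 FPKM in at least 3 libraries were tested with limma 3.58.1 (R 4.3.3) on log2(FPKM + 1) with a variance trend, two-sided, Benjamini-Hochberg adjusted over all 12258. Differences are PAL minus control on that scale, which understates low genes. The fit was tested on simulated data, in which every planted change was larger than those of CIRBP and RBM3. That test therefore does not bear on calls of their size. A list is described by its counts of called genes and its median, with no set test. Alternatives covered pseudocount, filter, scaling, biotype, variance model, a replicate block, voom (limma's read-count model) on recovered reads and left-out libraries. The 2 genes and all lists were chosen with earlier results of these data known. Named genes were the pair, their neighbours, all regulators, bound messages and receptors, from other lists the 3 with the lowest adjusted p plus set relatives, and the 5 most correlated genes for each; cell type markers are also named, and others are marked. Figures used matplotlib 3.10.9.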

Additional observations from a re-analysis of the deposited data

How the results depend on the processing

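The difference of CIRBP was no longer called with no filter on low values (0.193, adjusted p = 0.108) or with no variance trend (0.193, adjusted p = 0.0604), and ranged from 0.165 to 0.247 when 1 library was left out. The difference of RBM3 was no longer called as TPM (-0.0936), after quantile normalization (-0.0769) or with plain read totals (-0.0794), and ranged from -0.183 to -0.137 with 1 library left out. Over 18 alternatives adjusted p ran from 0.00896 to 0.133 for CIRBP and from 7.22e-04 to 0.130 for RBM3 in limma. The number of genes called, 3179, became 2103 with no filter and ranged from 1855 to 2789 with 1 library left out. Called regulators numbered 4, became 2 with no filter, and ranged from 1 to 4 with 1 library left out. Called stress granule genes numbered 6 and became 3 with no variance trend. Called RBM genes numbered 8, ranged from 4 to 6 with 1 library left out, and were 5 without both libraries numbered 3. The ratio of RBM3 to CIRBP reads, PAL over control, was 0.771 and ranged from 0.754 to 0.783 with 1 library left out, an alternative chosen after seeing the data. Of 66 named or listed genes with no call, 33 had the other sign in at least 1 alternative, and no direction was read for them.

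With a replicate block CIRBP stayed at 0.193 (adjusted p = 0.0389) and RBM3 at -0.164 (adjusted p = 0.0210), 2131 genes were called and 3 stress granule genes. Same-numbered libraries did not deviate together (r = -0.0239, 0.0273 and -0.0447), so the numbers were not taken to pair them. Depth limits CIRBP more than RBM3, with 1014 reads in its shallowest library against 5197.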
